A study of Rattus norvegicus with 8 samples.

Results

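The Wnt pathway genes described here are 40 named genes of the Wnt signalling route, from secreted ligands to the transcription factors in the nucleus. A gene was taken as measured where a probe set of the array was annotated to its symbol and to no other. By that rule 37 of the 40 genes were on the array, with 72 probe sets, out of 14217 genes named by a single symbol. Fzd7, Fzd9 and Ror2 were not analysed here. RNA of the rat ventral prostate was measured on 8 Affymetrix arrays in 4 groups of 2. The groups were vinclozolin lineage and control lineage males of generation F3, sampled as whole ventral prostate at 180 days of age and as prostate epithelium at 45 days. All were Sprague-Dawley rats descended from dams injected intraperitoneally between days 8 and 14 of pregnancy. Vinclozolin is a fungicide with antiandrogenic activity, and the series compares the descendants' prostate transcriptomes.

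Several features of the samples limit what the groups can show. The treatment protocol given for all 8 samples names only the vehicle DMSO, so the word vinclozolin rests on the sample titles. Epithelium is likewise a name taken from the labels. Fibroblast and smooth muscle markers were mostly higher on those arrays than in whole prostate, as given below. The name thus stands for a preparation and not for the cells in which a gene was measured. Each epithelium sample pooled 11 animals and each whole prostate sample pooled several, and nothing in the labels states that both samples of a group were drawn from different animals. The p-values therefore measure only how far these pools differ, which may be technical. Age and preparation changed together and cannot be told apart. In bulk RNA, fewer cells of a type and less RNA per cell cannot be told apart either.

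Wnt proteins are secreted lipid-modified ligands that bind Frizzled receptors together with the co-receptors Lrp5 and Lrp6. Without a ligand, a cytoplasmic destruction complex built on Axin and Apc lets casein kinase 1 and Gsk3 phosphorylate β-catenin (Ctnnb1), which is then degraded. With a ligand, Dishevelled proteins help to stop that complex, and β-catenin enters the nucleus and binds Tcf and Lef factors on target genes. Secreted antagonists such as Wif1 and the Sfrp proteins hold ligands outside the cell. In the prostate the pathway is known for its part in budding, in signals between stroma and epithelium, and in cancer.

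Axin2 and Nkd1 are feedback inhibitors that the pathway itself is known to induce, and Gsk3a is the member of lowest p in the whole prostate comparison below. Sequences before an annotated start of each are shown because they hold the core recognition word of Tcf and Lef factors. The search was for the word CTTTGAA or CTTTGAT, or for CTTTGTA or else CTTTGTT, on both strands, in the 250 bases before the annotated start. The sequences are from RefSeq, assembly GRCr8, read 5′ to 3′ on the strand of the gene, with each match in capitals. The Nkd1 stretch is chr19:34722847-34723096 on the minus strand, with a match 141 bases before the start. The Axin2 stretch is chr10:94398535-94398684 on the plus strand and has 2 matches, 232 and 132 bases before the start. It lies within the annotated span of Axin2 itself, so the start used is not the first base of that gene. The Gsk3a stretch is chr1:89953515-89953764 on the minus strand, with a match on the opposite strand 229 bases before the start.
Nkd1: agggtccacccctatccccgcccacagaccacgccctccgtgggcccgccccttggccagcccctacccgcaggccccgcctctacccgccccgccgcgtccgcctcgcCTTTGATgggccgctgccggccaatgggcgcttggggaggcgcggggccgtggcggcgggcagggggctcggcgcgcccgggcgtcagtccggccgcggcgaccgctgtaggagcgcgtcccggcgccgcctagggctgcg
Axin2: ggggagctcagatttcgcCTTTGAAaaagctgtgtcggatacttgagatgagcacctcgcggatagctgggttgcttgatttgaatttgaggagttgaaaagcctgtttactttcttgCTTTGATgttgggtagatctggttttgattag
Gsk3a: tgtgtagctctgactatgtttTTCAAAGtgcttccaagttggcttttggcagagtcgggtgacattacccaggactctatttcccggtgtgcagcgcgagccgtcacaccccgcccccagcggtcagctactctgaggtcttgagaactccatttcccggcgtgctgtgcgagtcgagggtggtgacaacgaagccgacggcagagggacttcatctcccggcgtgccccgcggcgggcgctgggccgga
A window was found for 27 of the 37 genes, and 3 of them (11.1%) held a match, against 4044 of 27457 genes (14.7%) of the whole table. A match describes these letters only, and the arrays do not measure binding.

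The per-array values given below are the deposited intensities, which are linear. Changes are differences of log2(intensity + 16) after quantile normalisation, so they understate changes of dim probe sets. Each is given with the standard error (SE) of a limma fit over all 8 arrays, with 2 arrays in each group. A probe set was called when its p-value, adjusted by the Benjamini-Hochberg method over all 21729 probe sets tested, was under 0.05. The arrays shared a 2% trimmed mean of 125.0 to 125.1, with medians of 28.7 to 38.7, and replicate arrays correlated at a Spearman rho of 0.9518 to 0.9715. Of the 72 probe sets, 54 were bright enough to be tested (a mean at or above the 30th percentile), and they covered 31 genes. Wnt5b, Wnt10a, Wnt11, Fzd5, Kremen1 and Dvl2 had no tested probe set, with intensities between 0.9 and 24.7 on the 8 arrays. Where a gene had several probe sets, the brightest stands for it, and for some genes others that differ are given.

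Vinclozolin against control, the comparison the series was made for, gave no call among the Wnt pathway genes in whole prostate. There, 0 of 54 probe sets passed by limma with Benjamini-Hochberg adjustment, against 379 of 21729 (1.74%) over the array. At an unadjusted p under 0.05 there were 10 of 54, against 18.7% over the array, and the lowest adjusted p was 0.084. The median change of the 31 genes was -0.01, the same as over all probe sets, with a range of -0.56 (Nkd1) to 0.86 (Gsk3a). In 7 genes both vinclozolin arrays lay above both control arrays and in 7 below, while 53.9% of all probe sets had such groups without overlap (26.1% above and 27.8% below). For 27 of the 31 genes the 95% interval of the change lay within 1 log2 unit of 0. The exceptions were Fzd6, Frzb, Gsk3a and Tcf7.

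The epithelium likewise gave 0 calls among 54 probe sets, where only 2 of 21729 (0.00920%) passed over the array. At an unadjusted p under 0.05 there were 7 of 54, against 11.4% over the array, and the lowest adjusted p was 0.267. The median change was 0.01, between -0.58 (Nkd1) and 0.58 (Fzd4). Groups without overlap were seen in 8 genes upward and 7 downward, against 39.4% of all probe sets (19.7% in each direction). The interval lay within 1 log2 unit of 0 for 29 genes, all but Frzb and Dkk3. The interval of a single gene reached a median of 0.41 to either side in both preparations.

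**Figure D1:**
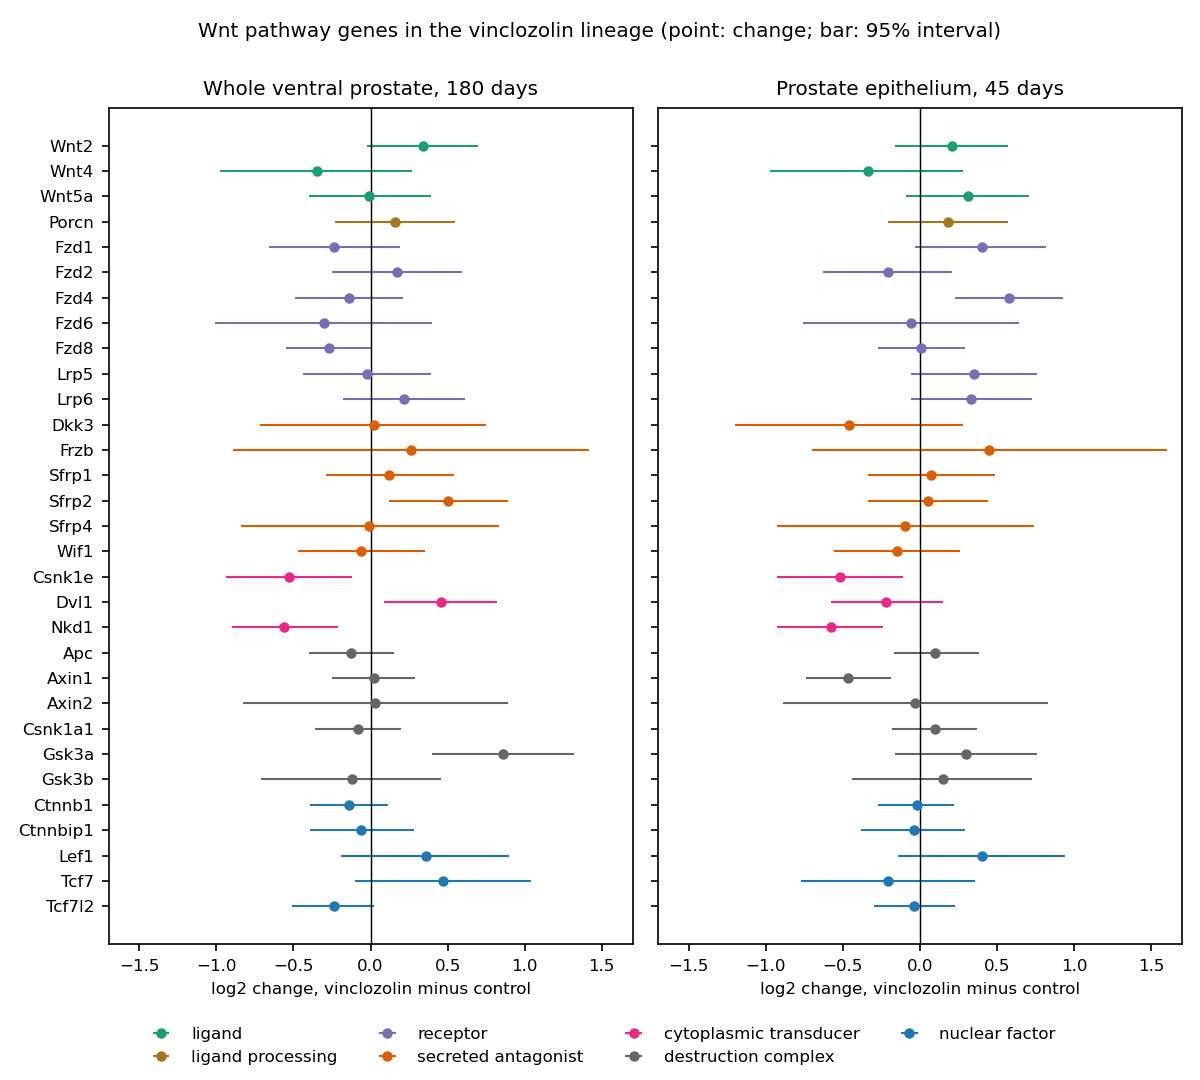
Change of each of the 31 tested Wnt pathway genes between vinclozolin and control arrays (x axis, log2 of intensity + 16 after normalisation), with whole ventral prostate on the left and epithelium on the right. Points are the fitted change of the brightest probe set, bars its 95% interval and colours the role in the pathway; Gsk3a at 0.86 is farthest from 0 on the left, and Nkd1 lies below 0 in both panels.

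Among the ligands, Wnt2, which in the prostate is mainly known from mesenchyme, had intensities of 30.8 and 25.1 on the whole prostate vinclozolin arrays, against 13.6 and 20.9 on the control arrays. The change was 0.34 ± 0.15 (adjusted p = 0.298). On this brightest probe set of Wnt2, both vinclozolin arrays were above both controls. The same was so in the epithelium, with 45.0 and 40.4 for vinclozolin against 35.4 and 32.2 for control. The dimmer Wnt2 probe set did not share this direction in epithelium. There both vinclozolin arrays were below both controls, a change of -0.31 ± 0.32 (adjusted p = 0.776). In whole prostate the groups overlapped on that probe set, with a change of 0.52 ± 0.32 (adjusted p = 0.443). Wnt5a, a ligand of the β-catenin-independent branch that limits prostate growth in the mouse, had 27.8 and 20.6 on the vinclozolin epithelium arrays, against 15.3 and 15.2 on the control arrays. Its change of 0.31 ± 0.17 was not called (adjusted p = 0.544), and in whole prostate it was -0.01 ± 0.17. Wnt4 gave -0.35 ± 0.26 in whole prostate and -0.34 ± 0.26 in epithelium, neither called. Porcn, the enzyme that attaches the lipid to Wnt proteins, gave 0.16 ± 0.16 and 0.18 ± 0.16 on its brightest probe set. Its dimmer probe set read 20.3 and 5.5 for vinclozolin against 20.8 and 15.9 for control in whole prostate, and 74.0 and 51.5 for vinclozolin against 45.5 and 46.6 for control in epithelium. On that probe set the changes were -0.38 ± 0.29 (adjusted p = 0.536) and 0.32 ± 0.29 (adjusted p = 0.732).

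Of the 7 receptors tested, none was called in either preparation. Fzd4, a Frizzled receptor with a known part in vessels, had 68.6 and 74.3 on the vinclozolin epithelium arrays, against 40.7 and 44.7 on the control arrays. Its change of 0.58 ± 0.15 had a 95% interval of 0.23 to 0.93 but an adjusted p of 0.271. In whole prostate the groups overlapped, with 34.1 and 47.3 for vinclozolin against 47.7 and 44.3 for control. The difference between the 2 effects of Fzd4, whole prostate minus epithelium, was -0.72 ± 0.21 (adjusted p = 0.239). Lrp5, a co-receptor, had 2 probe sets that differed in whole prostate. The dimmer read 16.1 and 26.6 for vinclozolin against 40.6 and 35.3 for control, a change of -0.59 ± 0.20 (adjusted p = 0.201), while the brighter gave -0.02 ± 0.17.

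The secreted antagonists also gave no call. Wif1, which binds Wnt ligands, had 332.3 and 239.3 on whole prostate vinclozolin arrays against 307.3 and 298.4 on control arrays. The change was -0.06 ± 0.17 with an interval of -0.47 to 0.35. Sfrp2, a soluble protein with a Frizzled-like ligand-binding domain, had opposite signs on its 2 probe sets. The brighter read 51.0 and 46.9 for vinclozolin against 26.1 and 31.2 for control in whole prostate, a change of 0.50 ± 0.16 (adjusted p = 0.176). The dimmer read 5.4 and 5.4 for vinclozolin against 22.6 and 11.3 for control, a change of -0.69 ± 0.22 (adjusted p = 0.174). The probe sets thus give Sfrp2 no common direction in whole prostate. In epithelium the antagonist of lowest p was Frzb, another Frizzled-like soluble protein, on its dimmer probe set. It read 14.1 and 30.2 for vinclozolin against 11.7 and 12.3 for control, a change of 0.37 ± 0.22 (adjusted p = 0.585).

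Nkd1, which binds Dishevelled and dampens the signal, was the cytoplasmic gene of lowest p in both preparations. Its brightest probe set read 8.8 and 8.5 on whole prostate vinclozolin arrays, against 15.9 and 20.5 on control arrays. In epithelium it read 39.4 and 39.3 for vinclozolin, against 56.7 and 72.8 for control. Each vinclozolin array was thus below both controls of its preparation. The changes were -0.56 ± 0.14 (adjusted p = 0.115) and -0.58 ± 0.14 (adjusted p = 0.27), neither called, and they share no array. A second tested probe set of Nkd1 gave -0.21 ± 0.43 and -0.08 ± 0.43. Csnk1e, a kinase that acts on Dishevelled, had a like pattern on its brightest probe set. It read 29.4 and 29.7 for vinclozolin against 58.9 and 40.3 for control in whole prostate, and 40.3 and 49.4 for vinclozolin against 62.3 and 73.9 for control in epithelium. Its changes of -0.53 ± 0.17 (adjusted p = 0.181) and -0.52 ± 0.17 (adjusted p = 0.357) were not called. Its other probe sets gave 0.00 and 0.08 in whole prostate and 0.50 and 0.00 in epithelium. Dvl1, a Dishevelled protein, read 235.8 and 191.6 for vinclozolin against 163.8 and 141.8 for control in whole prostate, a change of 0.46 ± 0.15 (adjusted p = 0.187). In epithelium that brightest probe set gave -0.22 ± 0.15. A second tested probe set of Dvl1 gave 0.11 ± 0.13 in whole prostate and -0.08 ± 0.13 in epithelium.

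In the destruction complex, Gsk3a, one of the kinases that mark β-catenin for degradation, had the lowest adjusted p of all members in whole prostate. Its single probe set read 195.7 and 147.4 on vinclozolin arrays, against 73.1 and 97.0 on control arrays. Both vinclozolin values were above both control values, and the change was 0.86 ± 0.19 with an interval of 0.40 to 1.32 (adjusted p = 0.084). It missed the threshold here and passed it in 3 alternative settings, with adjusted p-values of 0.0208 at a pseudocount of 64, 0.0401 with a filter at the 50th percentile and 0.00712 with a trended robust prior. Those settings also raised the calls over all probe sets, from 379 to 1133, 965 and 1814. In the other alternatives Gsk3a was not called. In epithelium the values were 120.6 and 154.3 for vinclozolin against 114.5 and 102.2 for control, a change of 0.30 ± 0.19 (adjusted p = 0.616). Its relative Gsk3b gave -0.12 ± 0.24 and 0.15 ± 0.24. Apc gave -0.13 ± 0.12 and 0.10 ± 0.12 on its brightest probe set. A dimmer Apc probe set gave -0.24 ± 0.21 in whole prostate and 0.86 ± 0.21 in epithelium (adjusted p = 0.271). The kinase gene Csnk1a1 gave -0.08 ± 0.12 and 0.10 ± 0.12 on its brightest probe set. A dimmer one gave 0.90 ± 0.31 and 0.35 ± 0.31, another 0.29 ± 0.24 and -0.73 ± 0.24, and neither was called. Axin1, the scaffold of the complex, had 149.4 and 159.3 on vinclozolin epithelium arrays, against 226.9 and 205.0 on control arrays. That change of -0.47 ± 0.11 (adjusted p = 0.267) was the lowest p of the members in epithelium, and in whole prostate Axin1 gave 0.02 ± 0.11. Axin2, the induced feedback inhibitor, gave 0.03 ± 0.36 in whole prostate and -0.03 ± 0.36 in epithelium. Its whole prostate values, 16.1 and 2.7 for vinclozolin against 13.9 and 2.1 for control, differed more within each group than between the groups.

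Ctnnb1 itself, on its brightest probe set, read 4111.6 and 4138.0 on whole prostate vinclozolin arrays, against 4091.1 and 4220.8 on control arrays. The change was -0.14 ± 0.10 with an interval of -0.39 to 0.11, and in epithelium it was -0.02 ± 0.10. A dimmer Ctnnb1 probe set read 249.7 and 225.1 for vinclozolin against 177.5 and 161.1 for control in whole prostate, a change of 0.46 ± 0.12 (adjusted p = 0.115). That probe set was called with a trended robust prior (adjusted p = 0.0176), while both brighter probe sets had values of opposite sign. Ctnnbip1, which blocks β-catenin from binding Tcf factors, had the nuclear probe set of lowest p in epithelium. It read 24.2 and 17.1 for vinclozolin against 35.5 and 26.3 for control, a change of -0.39 ± 0.14 (adjusted p = 0.391), and its brightest probe set gave -0.04 ± 0.14. Tcf7, Lef1 and Tcf7l2, the DNA-binding partners, gave 0.47 ± 0.24, 0.36 ± 0.23 and -0.24 ± 0.11 in whole prostate, none called.

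The difference between the effects in whole prostate and in epithelium was tested directly. It gave 0 calls among the 54 probe sets, against 63 of 21729 (0.290%) over the array. At an unadjusted p under 0.05 there were 10 of 54, against 13.5%, with a lowest adjusted p of 0.232 for a dimmer Apc probe set (-1.09 ± 0.30). As a description across genes, which are not independent replicates, the changes of the 31 genes in the 2 preparations correlated at a Pearson r of 0.35 and a Spearman rho of 0.26. The signs were the same for 17 of 31 genes (54.8%), against 54.2% of all probe sets.

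The other genes of the pathway, a list of 163, had 136 genes on the array and 119 tested. In whole prostate 3 of their 179 tested probe sets were called, near the 1.74% over the array. Dact3, a regulator of Dishevelled, fell to 9.4 and 5.0 on vinclozolin arrays, against 32.3 and 32.1 on control arrays, a change of -1.14 ± 0.17 (adjusted p = 0.0294). Its vinclozolin values were near the floor, and at a pseudocount of 1 its change of -2.15 was not called. Mmp7, a protease gene known as a β-catenin target in gut tumours, fell to 32.1 and 38.9 on vinclozolin arrays, against 86.7 and 103.1 on control arrays, a change of -1.04 ± 0.15 (adjusted p = 0.0283). Ccnd1, the cell cycle gene cyclin D1, was called higher on a single probe set of 3, with 223.5 and 182.0 for vinclozolin against 94.7 and 114.5 for control, a change of 0.84 ± 0.14 (adjusted p = 0.0478). Its brightest probe set was a different one and also rose, by 0.54, but was not called. All 3 calls were lost when any whole prostate array was left out, with changes of -1.34 to -0.96 for Dact3, -1.12 to -0.93 for Mmp7 and 0.71 to 0.96 for Ccnd1. Without an intensity filter, or with the 4 whole prostate arrays alone, none of the 3 was called. In epithelium and in the difference of effects 0 of 179 were called. Markers of other cell types also differed between the whole prostate groups. Of 11 tested skeletal muscle genes 7 were called lower with vinclozolin, with summed intensities of 1635 to 1692 for vinclozolin against 3386 to 3610 for control. The macrophage list was mixed, with 2 of 11 genes called higher, 7 above 0 and 4 below, and its summed intensity was 5477 to 6186 for vinclozolin against 7567 to 8190 for control. Its brightest gene Lyz2, the lysozyme of macrophages, gave -0.86 ± 0.16 (adjusted p = 0.0569). T and NK lymphocyte markers had no call, with 7 of 8 tested genes above 0 and sums of 474 to 477 for vinclozolin against 252 to 271 for control. Of 10 endothelial genes Esam alone was called, higher by 0.73 ± 0.12 (adjusted p = 0.0472), with sums of 438 to 454 for vinclozolin against 369 to 399 for control. The fibroblast, smooth muscle, basal, luminal, adipocyte and Schwann lists had no call there, and the part of these markers in the Wnt pathway values was not tested.

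Whole prostate at 180 days differed from epithelium at 45 days for several Wnt pathway genes, and these were nearly all lower in whole prostate. On the vinclozolin arrays 15 of the 54 passed, 1 higher and 14 lower, against 27.4% of all probe sets (14.2% higher and 13.1% lower). On the control arrays, which share no array with that comparison, 14 of the 54 passed, 1 higher and 13 lower, against 27.8% (15.0% higher and 12.9% lower). The share called was thus near that over the array, while the direction was mostly downward. No probe set was called higher on both sets of arrays and 12 of 54 were called lower on both, against 8.50% and 8.73% of all probe sets. By brightest probe set the genes lower on both were Wif1, Sfrp2, Nkd1, Lrp6, Fzd2, Ctnnb1 and Ctnnbip1. The median change of the 31 genes was -0.22 and -0.21, against 0.06 and 0.05 over all probe sets. With arrays centred on their median, which moved the median of all probe sets to 0.17 and 0.20, the members split into 2 higher and 12 lower on vinclozolin arrays and 4 higher and 11 lower on control arrays. The same centring changed the split over all probe sets from 52.1% higher to 67.5% on vinclozolin arrays and from 53.7% to 71.1% on control arrays.

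Cell type markers moved with this comparison in both directions. Fibroblast, smooth muscle, endothelial and basal markers were mostly lower in whole prostate than on the arrays labelled epithelium, and adipocyte, macrophage and lymphocyte markers were mostly higher. The 15 fibroblast and stroma markers summed to 4228 to 4295 and 4593 to 4643 in vinclozolin and control whole prostate, against 12034 to 12437 and 12443 to 13126 in vinclozolin and control epithelium. Of these 15 genes, 12 were called lower in whole prostate on each set of arrays. The 10 smooth muscle markers summed to 7558 to 7929 and 7312 to 7546 in whole prostate, against 18358 to 18466 and 19975 to 20243 in epithelium. The samples labelled epithelium thus had the higher stromal signal, which goes against a pure epithelium. A gene that was higher there is not thereby placed in epithelial cells. Basal epithelial markers summed to 1141 to 1146 and 1179 to 1198 in whole prostate, against 4242 to 4414 and 4355 to 4467 in epithelium, in the same order of lineages. Luminal markers differed less, with 20390 to 20758 and 20520 to 20814 in whole prostate against 23009 to 23646 and 23629 to 24508 in epithelium. Of 10 endothelial genes 5 were called lower on each set of arrays. In the other direction, adipocyte markers summed to 2355 to 2494 and 2459 to 2683 in whole prostate, against 258 to 322 and 256 to 296 in epithelium, and 6 of 8 tested genes were called higher on each set. Of 11 macrophage genes 8 were called higher and 2 lower on vinclozolin arrays, and 4 higher and 0 lower on control arrays, although the sum, led by Lyz2, was 5477 to 6186 and 7567 to 8190 in whole prostate against 7263 to 7451 and 8806 to 10272 in epithelium. Of 8 tested T and NK lymphocyte genes 5 were called higher and 0 lower on vinclozolin arrays, and 3 higher and 1 lower on control arrays. Skeletal muscle genes were mixed, with 2 of 11 called higher and 3 lower on vinclozolin arrays and 7 higher and 3 lower on control arrays. Some markers were under an intensity of 16 on both arrays of a group. Of 12 lymphocyte genes these were 7 in vinclozolin and 5 in control epithelium, and 2 and 3 in whole prostate. Of 9 adipocyte genes they were 2 and 3 in epithelium and 1 and 1 in whole prostate. The basal genes Col17a1 and Ngfr were under 16 in whole prostate of both lineages. Not every listed marker was thus clearly detected in both preparations. The actin 3′ to 5′ ratio, a sign of RNA quality, was 3.14 to 3.98 on whole prostate arrays and 2.26 to 2.57 on epithelium arrays. The part of cell makeup and of RNA quality in the Wnt pathway differences was not tested.

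**Figure D2:**
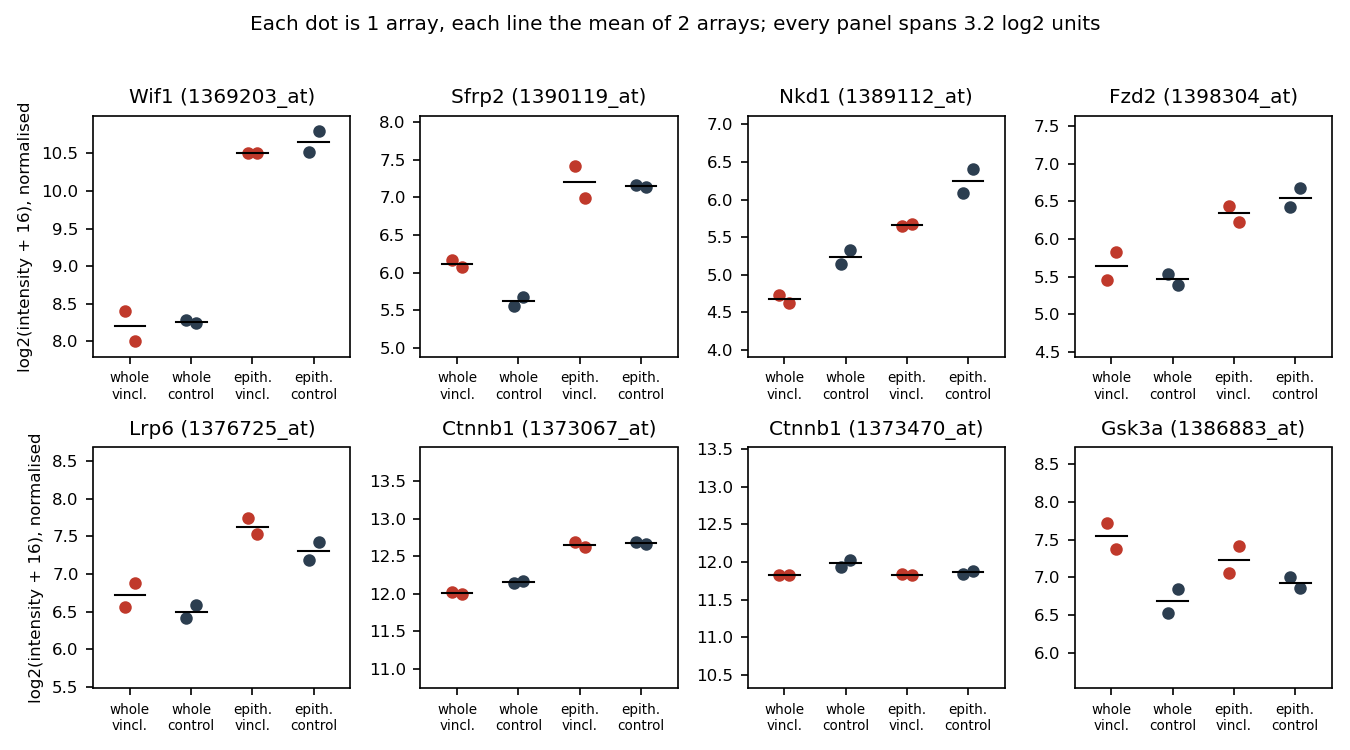
Normalised log2(intensity + 16) of 8 probe sets of Wnt pathway genes (y axis) on each array, with red dots for vinclozolin and dark dots for control, in whole prostate and epithelium. Lines are means of 2 arrays and every panel covers the same span; Wif1, Sfrp2, Nkd1, Fzd2, Lrp6 and a Ctnnb1 probe set are lower on all 4 whole prostate arrays, the other Ctnnb1 probe set is level, and Gsk3a is highest on the vinclozolin whole prostate arrays on average.

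Wif1 had the largest difference among the 31 genes in both lineages. It read 332.3 and 239.3 in vinclozolin whole prostate, against 1436.3 and 1450.3 in vinclozolin epithelium, a change of -2.30 ± 0.17 (4.92-fold lower, adjusted p = 0.000387). On control arrays it read 307.3 and 298.4 in whole prostate, against 1467.1 and 1791.7 in epithelium, a change of -2.39 ± 0.17 (5.23-fold lower, adjusted p = 0.000344). The groups were far apart in both lineages, and both calls stayed under all 17 alternatives, between -2.52 and -2.08. Sfrp2 was lower on both probe sets, of which the dimmer read 5.4 and 5.4 in vinclozolin whole prostate, near the floor. That dimmer one passed the intensity filter by a mean that its epithelium values raised. The brighter read 51.0 and 46.9 in vinclozolin whole prostate against 155.1 and 113.5 in vinclozolin epithelium, a change of -1.08 ± 0.16 (adjusted p = 0.00492). In the control lineage it read 26.1 and 31.2 in whole prostate against 127.8 and 126.2 in epithelium, a change of -1.53 ± 0.16 (adjusted p = 0.00131). The dimmer Sfrp2 probe set gave -1.68 ± 0.22 and -1.17 ± 0.22, and its control call was lost without control whole prostate array 2 (-0.89) or control epithelium array 1 (-1.01). Sfrp1, Sfrp4, Frzb and Dkk3 were not called, and Sfrp4, another soluble antagonist, had the highest changes of the members at 0.76 ± 0.35 and 0.67 ± 0.35.

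Among the receptors, Lrp6 read 73.7 and 96.4 in vinclozolin whole prostate against 195.9 and 168.0 in vinclozolin epithelium, a change of -0.91 ± 0.17 (adjusted p = 0.0095). On control arrays it read 65.2 and 77.7 in whole prostate against 130.1 and 154.8 in epithelium, a change of -0.80 ± 0.17 (adjusted p = 0.0147). Fzd2 read 24.8 and 37.7 in whole prostate against 76.3 and 64.4 in epithelium on vinclozolin arrays, a change of -0.70 ± 0.18 (adjusted p = 0.0284). It read 25.9 and 22.1 in whole prostate against 73.8 and 89.6 in epithelium on control arrays, a change of -1.08 ± 0.18 (adjusted p = 0.0063). All whole prostate arrays were below all epithelium arrays for both genes. The Lrp6 call on control arrays was lost without control whole prostate array 1 (-0.71) or 2 (-0.88) or control epithelium array 2 (-0.69), and the Fzd2 call on vinclozolin arrays without vinclozolin whole prostate array 1 (-0.51), either control whole prostate array (-0.69 each) or vinclozolin epithelium array 1 (-0.60) or 2 (-0.81). Fzd1, another Frizzled receptor, was called on vinclozolin arrays only, with 74.7 and 57.3 in whole prostate against 127.7 and 162.6 in epithelium, a change of -0.88 ± 0.18 (adjusted p = 0.0139). On control arrays it read 72.7 and 94.4 in whole prostate against 109.9 and 103.7 in epithelium, a change of -0.25 ± 0.18 (adjusted p = 0.352). The difference between these, tested directly, was -0.64 ± 0.25 (adjusted p = 0.35), so the lineages were not shown to differ, and the Fzd1 call was lost without vinclozolin whole prostate array 2 (-0.73) or vinclozolin epithelium array 2 (-0.72). Fzd4, Fzd6, Fzd8 and Lrp5 were not called.

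Nkd1 read 8.8 and 8.5 in vinclozolin whole prostate against 39.4 and 39.3 in vinclozolin epithelium, a change of -0.99 ± 0.14 (adjusted p = 0.00464). In the control lineage it read 15.9 and 20.5 in whole prostate against 56.7 and 72.8 in epithelium, a change of -1.01 ± 0.14 (adjusted p = 0.00406). The whole prostate values are so dim that the added 16 holds these changes down, and at a pseudocount of 1 they were -1.76 and -1.43. Their log2 means were 4.68 and 5.24 for vinclozolin and control, against 5.66 and 6.25 in epithelium. The epithelium values thus raised the mean by which this probe set passed the intensity filter. The order of its arrays is therefore no separate evidence of a difference. Taken as the median of the gene's probe sets, the changes were -0.74 and -0.69 and not called (adjusted p = 0.0782 and 0.0979). Axin2, the other feedback inhibitor whose sequence is shown above, had 16.1 and 2.7 in whole prostate against 31.0 and 40.1 in epithelium on vinclozolin arrays. On control arrays Axin2 had 13.9 and 2.1 in whole prostate against 37.4 and 33.0 in epithelium. Its changes of -0.89 ± 0.36 and -0.96 ± 0.36 were not called (adjusted p = 0.113 and 0.0944). The whole prostate values were near the floor, with log2 means of 4.66 and 4.63 for vinclozolin and control, against 5.55 and 5.58 in epithelium. The epithelium values thus raised the mean by which Axin2 passed the intensity filter, and the order of its arrays is no separate evidence of a difference. The ligand Wnt4 was just outside the threshold, at -0.87 ± 0.26 (adjusted p = 0.0513) and -0.86 ± 0.26 (adjusted p = 0.0523). Wnt4 read 16.6 and 3.7 in vinclozolin and 14.5 and 14.5 in control whole prostate, also near the floor. Its epithelium values likewise raised the mean by which it passed the filter. Wnt2 and Wnt5a were not called.

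Ctnnb1 gave different answers by probe set. The brightest read 4111.6 and 4138.0 in vinclozolin whole prostate against 6985.2 and 6449.4 in vinclozolin epithelium, a change of -0.64 ± 0.10 (adjusted p = 0.00638). In the control lineage it read 4091.1 and 4220.8 in whole prostate against 7048.2 and 7276.3 in epithelium, a change of -0.52 ± 0.10 (adjusted p = 0.0127), a call lost without either control whole prostate array. A dimmer one was also lower, at -0.68 ± 0.12 and -1.13 ± 0.12, and the -0.68 was not called with median centring (-0.41, adjusted p = 0.0555) or without vinclozolin whole prostate array 2 (-0.62). As a median over the gene's probe sets, Ctnnb1 gave -0.00 and 0.12, neither called. The third tested probe set, nearly as bright, was level, with 3676.3 and 3683.4 in whole prostate against 3779.8 and 3653.1 in epithelium on vinclozolin arrays and changes of -0.00 ± 0.10 and 0.12 ± 0.10. The tested probe sets of Ctnnb1 thus did not share a direction. Ctnnbip1 was lower on its brightest probe set, by 0.58 ± 0.14 and 0.56 ± 0.14 on the log2 scale (adjusted p = 0.0249 and 0.0274). It read 114.5 and 95.3 in whole prostate against 155.7 and 186.0 in epithelium on vinclozolin arrays, and 118.2 and 108.2 in whole prostate against 182.6 and 167.4 in epithelium on control arrays. A dimmer Ctnnbip1 probe set gave -0.18 ± 0.15 and -0.07 ± 0.15. Another gave 0.42 ± 0.14 on vinclozolin arrays and -0.01 ± 0.14 on control arrays, and neither was called. Its calls were lost with median centring (-0.42 and -0.33) and as a median over its probe sets (-0.18 and -0.07). Leaving out either whole prostate array of the lineage also ended them, as did vinclozolin epithelium array 2 or either control epithelium array, with changes of -0.71 to -0.46 on vinclozolin arrays and -0.63 to -0.51 on control arrays. Tcf7l2 also split by probe set. The brightest was level at -0.09 ± 0.11 and 0.11 ± 0.11, another rose by 0.83 ± 0.14 on control arrays (adjusted p = 0.00768), and another gave -0.97 ± 0.21 and -1.06 ± 0.21 (adjusted p = 0.0175 and 0.013). The higher Tcf7l2 call was lost without control whole prostate array 1 (0.67). The lower ones were lost without vinclozolin whole prostate array 1 (-0.70) or vinclozolin epithelium array 1 (-0.97) or 2 (-0.99), and without control whole prostate array 1 (-0.83) or control epithelium array 1 (-1.05).

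The remaining calls were on single probe sets. Dvl1 was the gene called higher in whole prostate by its brightest probe set, with 235.8 and 191.6 in whole prostate against 133.2 and 156.9 in epithelium on vinclozolin arrays, a change of 0.52 ± 0.15 (adjusted p = 0.0463). That call was lost under 12 of 17 alternatives, each left-out array among them, and on control arrays the change was -0.15 ± 0.15. A second Dvl1 probe set was called the other way, at -0.45 ± 0.13 and -0.63 ± 0.13 (adjusted p = 0.047 and 0.0152), calls lost under 11 and 5 of 17 alternatives, among them median centring (-0.29 and -0.42). Dimmer probe sets of Csnk1e (-0.48 and -0.55), of Porcn on vinclozolin arrays (-1.33 ± 0.29) and of Csnk1a1, a kinase of the destruction complex, on control arrays (-0.48 ± 0.13) were called lower, while the brightest of each was not. These calls were lost under 11 and 6 alternatives for Csnk1e and 5 for Porcn, of 16 each, and under 12 of 17 for Csnk1a1, where median centring gave -0.14. Of the 6 destruction complex genes none was called by its brightest probe set. Across the 31 genes the 2 sets of changes correlated at a Pearson r of 0.84 and a Spearman rho of 0.70, against 0.75 and 0.67 over all probe sets, as a description.

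**Figure D3:**
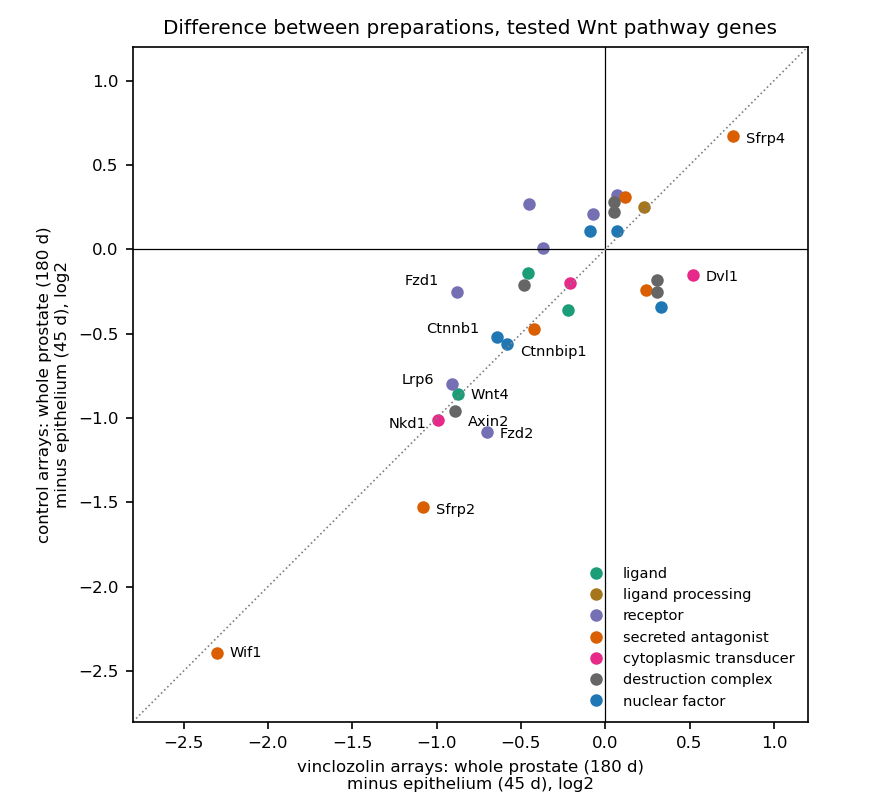
Whole prostate (180 days) minus epithelium (45 days), as log2 changes of the 31 tested Wnt pathway genes, on vinclozolin arrays (x axis) and control arrays (y axis). Each point is the brightest probe set of a gene, coloured by role, and the dotted line marks equal changes; Wif1 and Sfrp2 lie farthest down the line and Sfrp4 farthest up.

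Of the 179 tested probe sets of other pathway genes, 22 were higher and 38 lower in whole prostate on vinclozolin arrays by the same call, against 27.4% called in either direction over all probe sets. On control arrays 27 were higher and 35 lower, against 27.8%. On both sets 16 were higher and 28 lower, against 8.50% higher and 8.73% lower over all probe sets. Median centring changed these splits to 35 higher and 33 lower, and to 43 higher and 28 lower. The direction of this list therefore depends on the scaling. Lgr5, a receptor for the Wnt-enhancing R-spondins and itself a known target, read 39.2 and 29.5 in vinclozolin whole prostate against 256.1 and 246.9 in vinclozolin epithelium, a change of -2.37 ± 0.15 (adjusted p = 0.000214). On control arrays it read 36.4 and 46.6 in whole prostate against 261.5 and 252.3 in epithelium, a change of -2.16 ± 0.15 (adjusted p = 0.000299). Jun, an early response transcription factor, gave -3.42 ± 0.15 and -3.62 ± 0.15, and the Ccnd1 probe set called above gave -2.12 ± 0.14 and -2.66 ± 0.14. The common transcriptional targets as a list had a median of -0.54 and -0.48, with 9 of 25 genes called lower and 1 higher on each set of arrays by their brightest probe sets, against 13.1% lower and 14.2% higher over all probe sets on vinclozolin arrays and 12.9% lower and 15.0% higher on control arrays. By brightest probe set 9 of the other pathway genes were called higher on both sets of arrays and 18 lower. The genes named here were those of lowest p in each direction over all tested probe sets, brightest or not. Named as higher in whole prostate on both are Chd8, a chromatin remodeller that binds β-catenin (0.87 ± 0.12 and 0.89 ± 0.12), Plcb1, a phospholipase (0.76 ± 0.13 and 0.85 ± 0.13), and a probe set of the kinase gene Csnk2a1 (0.73 ± 0.11 and 0.83 ± 0.11). Another Csnk2a1 probe set went the other way, at -2.35 ± 0.18 and -1.85 ± 0.18. As a median over its probe sets Csnk2a1 was lower, at -2.25 and -1.55.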

How the data were processed

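The authors deposited a linear intensity for each of 31099 probe sets on 8 arrays, and the software behind it was not given in the sources used here. RNA was labelled with biotin by the maker's procedure, per the labels' protocols. After removal of 57 control probe sets, log2(intensity + 16) was quantile normalised, and a filter kept the 21729 probe sets at or above the 30th percentile of mean intensity. The 4 group means were fitted by limma 3.58.1 (R 4.3.3) with an empirical Bayes spread and 4 residual degrees of freedom. The number of arrays limits the precision. Groups came from the sample titles. A gene name was used only where the platform annotation gave a probe set 1 symbol (20832 probe sets, against 436 with several and 9780 not listed). Entrez identifiers of 20764 were found in RefSeq (GRCr8).

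The members and lists were chosen with earlier results of these data known. Values on every array are given for members called in a comparison, at most 6 per direction by lowest p. They are also given for the member of lowest p of each role in each vinclozolin comparison. Some further probe sets and genes that differ are named. Replicate numbers did not pair samples across lineages, with correlations of same-number deviations of 0.003 in whole prostate and 0.029 in epithelium. Alternatives were 2 pseudocounts, 2 filters, 2 scalings, another prior, the replicate block, the 4 arrays of a comparison alone, each array left out, and the median over a gene's probe sets. Plots were drawn with matplotlib 3.10.9 in Python 3.11.15. The fit was also run on data simulated from its own error model, which cannot show whether that model holds for these arrays.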

Additional observations from a re-analysis of the deposited data

How the results depend on the processing

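Among the Wnt pathway genes the count of 0 calls in epithelium and in the difference of effects stayed at 0 under every alternative run, and in whole prostate it became 1 with a pseudocount of 64, 1 without a filter, 1 with a filter at the 50th percentile and 2 with a trended robust prior (0 to 0 with an array left out). The call without a filter was a dim Dvl1 probe set (1.19, adjusted p = 0.0239). Preparation calls of 15 on vinclozolin arrays became 9 with those 4 arrays alone and 8 to 14 with an array left out, lowest without vinclozolin whole prostate array 2 (8) or either vinclozolin epithelium array (9 each). The 14 on control arrays became 6 to 15, lowest without control whole prostate array 1 (6) or 2 (8) or control epithelium array 1 (9).

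Over all probe sets the 379 whole prostate calls became 235 with a pseudocount of 1, 1133 with 64, 200 without a filter, 965 at the 50th percentile, 1814 with the trended robust prior, 65 with the 4 arrays alone and 24 to 225 with an array left out. The 2 epithelium calls became 1 with median centring, 0 with a pseudocount of 1, 66 with 64, 0 without a filter, 23 at the 50th percentile, 205 with the trended robust prior, 0 with the 4 arrays alone and 0 to 0 with an array left out. The 63 calls for the difference became 40, 262, 32, 169 and 540 under a pseudocount of 1, a pseudocount of 64, no filter, the 50th percentile and the trended robust prior, and 5 to 19 with an array left out. The 5946 preparation calls on vinclozolin arrays became 3931 with the 4 arrays alone and 3332 to 6022 with an array left out, and the 6051 on control arrays 2648 to 5789. With the replicate number as a replicate block, calls over all probe sets were 32 in whole prostate, 0 in epithelium and 5 for the difference. The block left the Wnt pathway members at 0 in all 3 and brought the other pathway genes to 0 in whole prostate.

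The 3 other pathway calls in whole prostate became 5 with values as deposited, 6 with median centring, 1 with a pseudocount of 1, 11 with 64, 0 without a filter, 11 at the 50th percentile, 15 with the trended robust prior, 0 with the 4 arrays alone and 0 to 1 with an array left out. In epithelium 0 became 1 with a pseudocount of 64 and 1 with the trended robust prior, and for the difference 5 with that prior. Preparation calls of 60 became 39 with the 4 arrays alone and 39 to 60 with an array left out, and 62 became 36 to 62. Among values of named probe sets under the alternatives, 9 changed sign. The dim Porcn probe set gave 0.04 in whole prostate without vinclozolin array 2, within a range of -0.82 to 0.04 with an array left out. As medians over a gene's probe sets, Ctnnb1 gave -0.15 for vinclozolin in whole prostate, Ctnnbip1 0.04 in epithelium, Dvl1 0.03 between preparations on vinclozolin arrays against its lower probe set, Ctnnb1 and Tcf7l2 0.12 each between preparations on control arrays, and Csnk2a1 -2.25 and -1.55 between preparations. A further 134 lost their call, 4 gained one and 834 kept direction and call. Except where stated, the cause was not tested.

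With 2 arrays a group, the unadjusted 95% interval of a single gene reached a median of 0.41 to either side in each vinclozolin comparison. Larger changes could also miss the threshold, as did the 0.86 of Gsk3a in whole prostate (adjusted p = 0.084). Intensities under 16, at 28.3% to 36.8% of the probe sets by array, are where the added 16 holds changes down.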
